A study of Mus musculus with 6 samples.

Results

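Fdps, Nsdhl, Mvk and Acat2 encode 4 enzymes on the route from acetyl-CoA to cholesterol, and their mRNA levels are described here in the epididymal white adipose tissue of fed and fasted mice. They were taken by name, with earlier results of these data known. They are 4 of the 3162 genes in the 6 files, and all 4 were among the 2999 genes tested. The tissue, the visceral fat pad beside the epididymis, came from male wild-type C57BL/6J mice aged 16 weeks that were kept under specific pathogen-free conditions. The study asked what short food deprivation does to transcription and lipid metabolism in this depot: 3 mice were fed normally and 3 were deprived of food for 24 h. The design text calls the 3 libraries of a group biological replicates. Levels are FPKM, fragments scaled to transcript length and to the library's mapped total, so that they can be set side by side between genes.

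Cholesterol is built in the cytosol and endoplasmic reticulum. Acetyl-CoA units are joined to HMG-CoA, reduced to mevalonate, phosphorylated and condensed to farnesyl diphosphate, which also feeds protein prenylation, dolichol and ubiquinone. Squalene made from farnesyl diphosphate is closed to lanosterol and trimmed to cholesterol. Most genes of the route are targets of the transcription factor SREBP2, which is released from the endoplasmic reticulum when membrane sterol is low, and SREBP1, the insulin-responsive relative, binds many of the same promoters. Adipocytes store much free cholesterol in their droplets and take up most of it from lipoproteins. Acat2 is the cytosolic acetoacetyl-CoA thiolase of the opening step, and is not the cholesterol acyltransferase Soat2, which has carried the same alias. Mvk is mevalonate kinase, Fdps is farnesyl diphosphate synthase, and Nsdhl is a sterol dehydrogenase that takes part in stripping methyl groups from the sterol ring.

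The 4 genes lie on different chromosomes (GRCm38, GENCODE). Fdps (ENSMUSG00000059743) spans 89093588 to 89101959 of chromosome 3 (minus strand). Nsdhl (ENSMUSG00000031349) spans 72918557 to 72958514 of chromosome X (plus strand). Mvk (ENSMUSG00000041939) spans 114444269 to 114460591 of chromosome 5 (plus strand), and Acat2 (ENSMUSG00000023832) spans 12942890 to 12960747 of chromosome 17 (minus strand). They differ in how uniquely a read can be placed. Of the 31-base words in the protein-coding transcripts of Nsdhl (2138 words) and Mvk (2046 words), 0 occur in a transcript of another annotated gene. For Acat2, 45.2% of 2487 words occur in Acat3, its neighbour on chromosome 17. For Fdps, 67.5% of 1798 words occur elsewhere, 59.4% in the protein-coding model Gm43738, which shares exons with Fdps on the same strand, and 38.7% and 23.3% in the processed pseudogenes Gm3571 (chromosome 10) and Gm5873 (chromosome 6). The levels of Fdps and Acat2 therefore depend on how the authors' counting divided shared reads and are uncertain to that extent. Gm43738, Gm3571, Gm5873 and Acat3 were not analysed here.

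All 4 genes were lower in fasted tissue, as were 49.4% of all genes tested, and their start regions are shown as a description. RefSeq windows of 300 bases (GRCm38.p6, 250 bases before a start to 50 after) matched for 3 of them, Nsdhl, Mvk and Acat2, and not for Fdps. The stretch of each window outside every annotated gene is given 5′ to 3′ on the strand of the gene, at chrX:72918412-72918520, chr5:114444074-114444263 and chr17:12960748-12960962. Capitals mark CCAAT, the box bound by NF-Y, and GGGCGG, the box bound by Sp1, on either strand. Both factors are known partners of SREBPs.
Nsdhl: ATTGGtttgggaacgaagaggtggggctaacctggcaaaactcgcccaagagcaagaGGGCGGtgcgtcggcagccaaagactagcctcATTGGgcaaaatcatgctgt
Mvk: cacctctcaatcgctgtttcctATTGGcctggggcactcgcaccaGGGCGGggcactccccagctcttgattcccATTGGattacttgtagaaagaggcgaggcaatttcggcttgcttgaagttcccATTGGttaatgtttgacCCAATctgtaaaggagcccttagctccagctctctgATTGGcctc
Acat2: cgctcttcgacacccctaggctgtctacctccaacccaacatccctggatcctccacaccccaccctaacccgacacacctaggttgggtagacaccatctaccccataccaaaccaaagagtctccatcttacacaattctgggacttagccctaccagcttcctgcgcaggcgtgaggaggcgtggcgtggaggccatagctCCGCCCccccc

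The Mvk stretch holds 5 matches to CCAAT within 190 bases and 1 to GGGCGG. It lies between Mvk and Mmab, a gene on the opposite strand whose start is 209 bases from that of Mvk. The Nsdhl stretch of 109 bases holds 2 matches to CCAAT and 1 to GGGCGG, and it parts Nsdhl from Cetn2, whose start is 146 bases away on the opposite strand. The whole 300-base window of Nsdhl holds 4 matches to CCAAT. The Acat2 window holds no match to CCAAT (0) and 1 to GGGCGG. Over all 32851 RefSeq windows, 37.4% hold CCAAT on either strand, 1.06% hold at least 4 matches and 0.271% at least 5, and 35.7% hold GGGCGG. The E-box letters CANNTG, which occur in 72.3% of all windows, are in those of Nsdhl and Mvk (1 match each) and not in that of Acat2 (0). The letters TCACNCCAC, a form of the sterol regulatory element, are in 1.24% of all windows and in none of these (0 matches). No motif letters overlap another motif in the stretches shown. A match is a string of letters and not a shown binding site, and a window without one says only that these letters are not in it.

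Fdps was 25.1, 43.4 and 24.4 FPKM in fed replicates 1, 2 and 3, and 8.97, 8.23 and 5.79 FPKM in the fasted replicates. All 3 fasted values were below all 3 fed values, and fed replicate 2 stood above the other fed libraries. The mean went from 31.0 ± 10.7 to 7.66 ± 1.66 FPKM (SD, n = 3 per group), so that fasted tissue held 24.7% of the fed level. After log2 transformation with 1 FPKM added, a scale that shrinks changes of weakly expressed genes, the difference was -1.85 ± 0.25 (SE, with a 95% interval of -2.43 to -1.27). This was the deepest fall of the 4, and 76 of the 2999 genes tested (2.53%) fell further.

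Mvk was 18.5, 28.4 and 21.6 FPKM in the fed libraries and 7.07, 6.72 and 9.03 FPKM in the fasted ones. The groups did not overlap, and fed replicate 2 was again the highest. The mean went from 22.8 ± 5.06 to 7.61 ± 1.25 FPKM (n = 3 per group), which is 33.3% of the fed level, with a log2 difference of -1.46 ± 0.19 (-1.89 to -1.02).

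Nsdhl was 25.3, 36.0 and 21.2 FPKM in the fed libraries and 11.7, 9.17 and 7.04 FPKM in the fasted ones. The groups were apart, with fed replicate 2 highest. Its mean went from 27.5 ± 7.66 to 9.30 ± 2.32 FPKM, or 33.8% of the fed level, and its log2 difference was -1.46 ± 0.23 (-2.0 to -0.916).

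Acat2 was 43.9, 49.2 and 55.3 FPKM in the fed libraries and 18.5, 22.9 and 21.3 FPKM in the fasted ones. The groups did not overlap. Here fed replicate 3 and not fed replicate 2 was the highest. The mean went from 49.5 ± 5.69 to 20.9 ± 2.22 FPKM, which leaves 42.2% of the fed level, and the log2 difference was -1.21 ± 0.14 (-1.53 to -0.886).

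**Figure D1:**
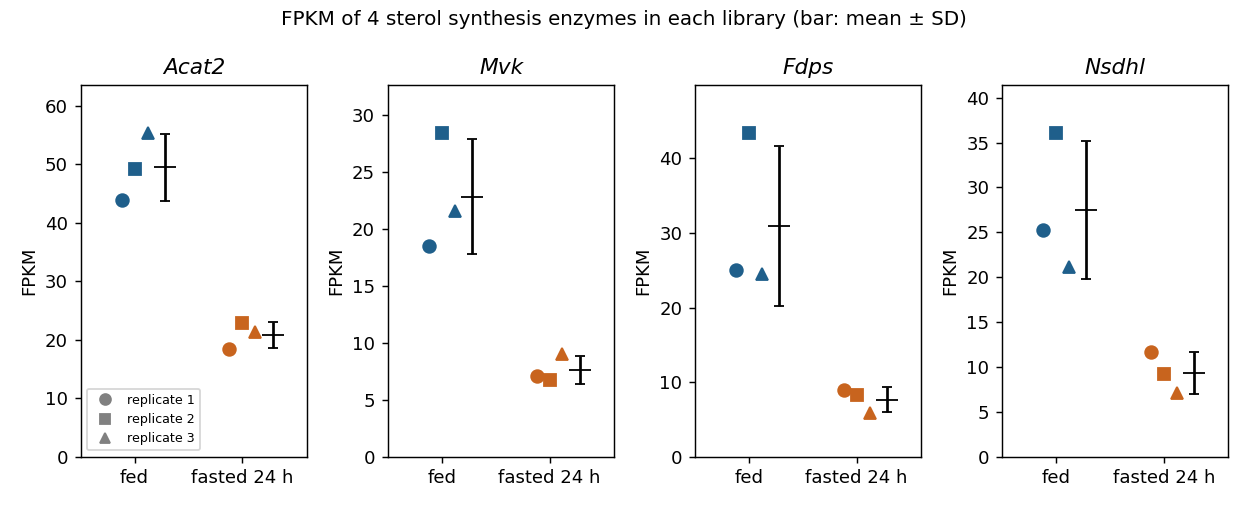
FPKM of Acat2, Mvk, Fdps and Nsdhl in each of the 6 libraries, fed on the left and fasted for 24 h on the right, with the marker shape giving the replicate number (which pairs no mice) and the black bar the mean ± SD of 3 libraries. The fasted points lie below the fed points in all 4 panels, and the square of fed replicate 2 is the highest fed point for Mvk, Fdps and Nsdhl but not for Acat2.

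Limma's adjusted p over the 2999 genes was 0.000946 for Acat2, 0.00130 for Mvk, 0.00144 for Fdps and 0.00255 for Nsdhl. Of the genes tested 49.4% were called lower and 52.6% had every fasted value below every fed value, so the call and the lack of overlap say little about these 4 genes in particular. Of all 3162 genes in the files 93.4% had groups that did not overlap in one direction or the other. The genes held had evidently been selected for a difference between these libraries, and these 4 had the smallest p of the 14 pathway genes described further on, so the p-values are a description and no independent evidence. An exact two-sided permutation test that uses no other gene gave p = 0.1 for each of the 4, the smallest value that 3 against 3 allows. The median log2 difference of all genes tested was -0.34, and the 4 enzymes lay -1.51 (Fdps), -1.12 (Nsdhl), -1.12 (Mvk) and -0.86 (Acat2) from it. Median-ratio scaling of the libraries raised that median by 0.20 and quantile scaling by 0.13. The enzymes' distances from it were then -0.86 to -1.51 and -0.87 to -1.57. Median-ratio scaling divides all genes of a library by the same factor, so these distances could hardly change with it and are no check.

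**Figure D2:**
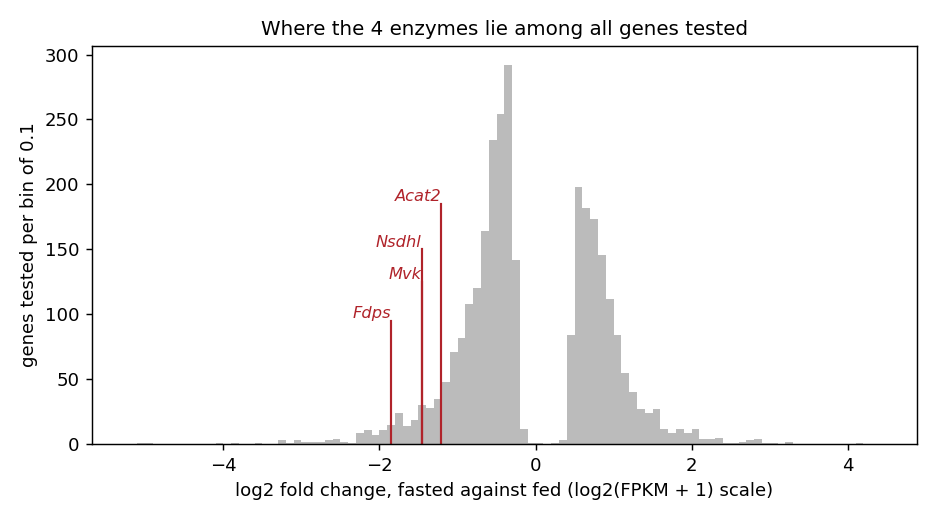
Histogram of the log2 fold change of the 2999 genes tested, fasted against fed, in bins of 0.1 on the log2(FPKM + 1) scale, with red lines at Fdps, Nsdhl, Mvk and Acat2. The 4 enzymes lie in the left shoulder, between -1.21 and -1.85, and the near-empty interval around 0 shows the selection of genes in the files.

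In order of level, Acat2 was the highest of the 4 in both groups. Its lowest fed value, 43.9 FPKM, was just above the highest fed value of Fdps, 43.4 FPKM. Fdps, Nsdhl and Mvk overlapped one another in fed tissue (24.4 to 43.4, 21.2 to 36.0 and 18.5 to 28.4 FPKM) and in fasted tissue (5.79 to 8.97, 7.04 to 11.7 and 6.72 to 9.03 FPKM), so their order was not resolved. Together the 4 mRNAs summed to 113, 157 and 122 FPKM in the fed libraries and to 46.2, 47.0 and 43.1 FPKM in the fasted ones. The fasted sums lay closer together than the fed sums. Within the sum, Acat2 made up 31.3% to 45.1% in fed and 40.0% to 49.3% in fasted libraries, and Fdps made up 20.0% to 27.6% and 13.4% to 19.4%.

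Whether 1 enzyme fell more than another was tested for all 6 pairs by the log2 ratio of their FPKM + 1 within each library. The ratio of Fdps to Nsdhl was -0.01 to 0.26 in fed and -0.35 to -0.14 in fasted libraries. These ranges do not overlap, with a difference of -0.39 (exact permutation p = 0.1, adjusted p = 0.6 over the 6 pairs). Fdps to Acat2 gave the widest difference, -0.65 (exact permutation p = 0.2, adjusted p = 0.6), with overlapping ranges of -1.15 to -0.18 and -1.71 to -0.97. Nsdhl and Mvk fell by nearly equal amounts, with a difference between them of -0.003, although single libraries gave ratios from -0.32 to 0.65. No pair could fall under 0.1 with 3 libraries a group, so unequal falls among the 4 were neither shown nor excluded by this test.

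The 3 fed libraries were spread more widely for 3 of the enzymes than for Acat2. The standard deviation of log2(FPKM + 1) among fed libraries was 0.45 for Fdps, 0.38 for Nsdhl, 0.30 for Mvk and 0.16 for Acat2. The median over all genes tested was 0.17, and over the 1482 genes called lower it was 0.20. Of those 1482 genes, 13.0% were more widely spread than Fdps, 19.3% than Nsdhl, 28.9% than Mvk and 60.9% than Acat2. The highest fed value was 1.77 times the lowest for Fdps, 1.70 times for Nsdhl, 1.53 times for Mvk and 1.26 times for Acat2. Fed replicate 2 was 1.75 times the mean of the other fed libraries for Fdps, 1.55 times for Nsdhl, 1.42 times for Mvk and 0.991 times for Acat2. Without fed replicate 2 the log2 differences were -1.59 (Fdps), -1.30 (Mvk), -1.25 (Nsdhl) and -1.21 (Acat2), with limma adjusted p of 0.00295 to 0.00691. Median-ratio scaling, with size factors of 1.033, 1.142 and 1.035 for fed replicates 1, 2 and 3, drew the fed standard deviations closer together, to 0.37 for Fdps, 0.30 for Nsdhl, 0.23 for Mvk and 0.18 for Acat2, against a median of 0.17 over all genes tested. Fed replicate 2 was then 1.59 times the mean of the other fed libraries for Fdps, 1.40 times for Nsdhl, 1.28 times for Mvk and 0.898 times for Acat2. The difference in spread between the 4 enzymes was not tested. Among the fasted libraries the same standard deviation was 0.29 for Fdps, 0.33 for Nsdhl, 0.20 for Mvk and 0.15 for Acat2.

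The highest fed value came from fed replicate 2 in 1345 of the 2999 genes (44.8%) and for 63.0% of the genes called lower. Its summed FPKM over the genes held was also the highest, 209201 against 190382 and 197545 in the other fed libraries and 180058 to 188061 in the fasted ones. These sums cover selected genes and are no sequencing depths. Spearman correlations across the genes held were 0.973 to 0.985 between libraries of a group and 0.832 to 0.926 between groups.

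Along the rest of the route, 14 of 19 listed enzymes were held, and the other 5 (Pmvk, Fdft1, Cyp51, Tm7sf2 and Lbr) were not analysed here. Of the 14, 13 were lower in fasted tissue, 0 were higher and 1 did not pass, where 49.4% of all genes tested were called lower. The 14 include the 4 enzymes, and 9 of the 10 other genes were lower. The median log2 difference was -1.26 over the list, -1.02 over the 10 genes other than the 4 enzymes, and -0.34 over all genes tested. From acetyl-CoA to farnesyl diphosphate 5 of 6 genes were lower, and from squalene to cholesterol 8 of 8, counts that also include the 4 enzymes. Of the other 10 genes counted here, Dhcr7, a late sterol reductase, had the largest fall. It was 5.35, 20.2 and 8.69 FPKM in fed and 2.77, 1.76 and 3.13 FPKM in fasted libraries (-1.64 ± 0.41). The groups were apart, with fed replicate 2 far above the other fed libraries.

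Sc5d, the sterol desaturase, differed by -1.46 ± 0.28. Mvd, the decarboxylase that follows the mevalonate kinases, differed by -1.41 ± 0.33. Sqle, the squalene epoxidase, differed by -1.32 ± 0.28, Msmo1, the methyl oxidase acting before Nsdhl, by -1.04 ± 0.19, Idi1, the isomerase just ahead of Fdps, by -0.995 ± 0.19, and Lss, lanosterol synthase, by -0.86 ± 0.21. The smallest called falls were those of Hsd17b7, the ketoreductase that acts after Nsdhl (-0.67 ± 0.23), and Ebp, the sterol isomerase (-0.38 ± 0.13). Ebp was 30.0, 33.7 and 31.1 FPKM in fed and 21.0, 25.5 and 26.0 FPKM in fasted libraries. Each of these last 2 calls was lost in 7 of 15 alternative analyses, among them those leaving out fed replicate 1, fed replicate 2, fasted replicate 1 or fasted replicate 3 for Hsd17b7 (limma adjusted p of 0.0117 to 0.491 over all 15) and those leaving out fed replicate 2, fed replicate 3 or fasted replicate 1 for Ebp (0.0247 to 0.468). Hmgcs1, HMG-CoA synthase, was the gene that did not pass. It was the most abundant of the 14, with 47.3, 129.5 and 59.7 FPKM in fed and 38.3, 33.4 and 52.1 FPKM in fasted libraries, and its groups overlapped (-0.81 ± 0.35, limma adjusted p = 0.0576). Without fed replicate 1 it passed (-1.10, adjusted p = 0.0204), and without fed replicate 2 it was -0.38.

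With every annotated gene that is not in the files given the largest possible p, 4 of the 14 were lower, where 6.4% of the genes tested were. Those 4 are Fdps, Nsdhl, Mvk and Acat2 (adjusted p of 0.0175 to 0.0471), and all members and lists were chosen with results of these data known. Of the other 10 genes counted here, Msmo1 had the smallest adjusted p, 0.0653. With the adjustment over protein-coding genes the calls of Dhcr7, Mvd and Lss were lost too (limma adjusted p of 0.0538 to 0.0652). Without fed replicate 2, 11 of the 14 were lower, where 37.3% of all genes tested were, and the list's median was -1.01 against -0.28 over all genes tested.

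**Figure D3:**
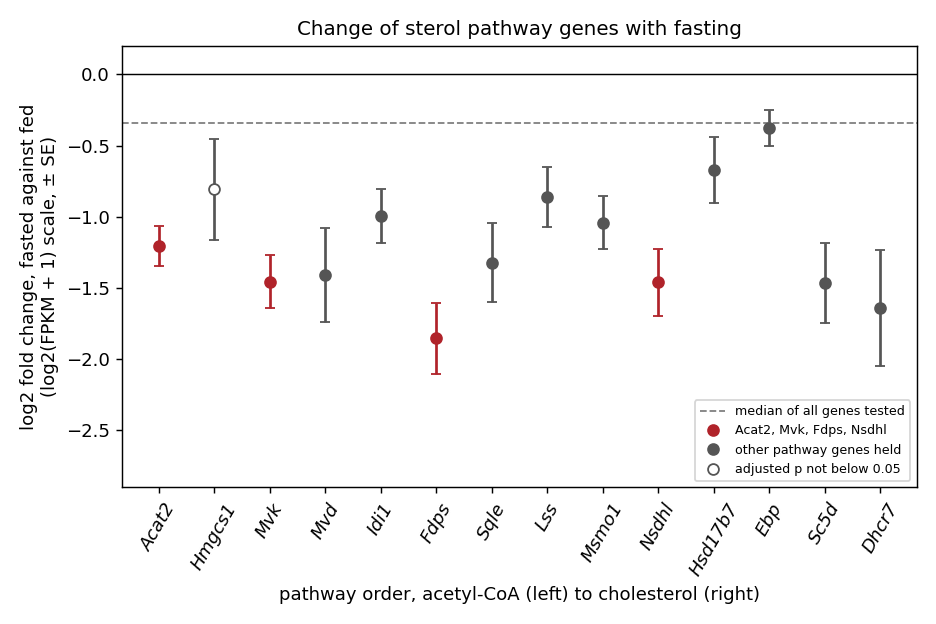
Log2 fold change (fasted against fed, log2(FPKM + 1) scale, bars are ± SE) of the 14 pathway genes described, in the order of the route from acetyl-CoA to cholesterol, with the 4 enzymes in red, an open point where the adjusted p was not below 0.05 and a dashed line at the median of all genes tested. All 14 points lie below the dashed line at -0.34, from -0.38 for Ebp to -1.85 for Fdps.

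For 13 of the 14 genes the highest fed value was that of fed replicate 2, Acat2 being the exception. The same held for 44.8% of all genes tested and for 63.0% of the genes called lower. After median-ratio scaling, a check chosen after seeing the data, fed replicate 2 was highest for 12 of the 14. That compares with 29.0% of all genes tested and 44.1% of the genes called lower without scaling. Ebp (29.0, 29.5 and 30.0 scaled FPKM) was then highest in fed replicate 3, as was Acat2. Before scaling, the ratio of fed replicate 2 to the mean of the other fed libraries was 1.10 (Ebp) to 2.87 (Dhcr7). These ratios cover the 10 genes other than the 4 enzymes. After scaling they were 0.998 (Ebp) to 2.60 (Dhcr7). Acat2 had the next smallest fed spread of the 14 after Ebp. Before scaling, the median fed standard deviation was 0.41 over the 14 genes. It was 0.62 over 17 genes of fatty acid synthesis and 0.40 over 6 genes of triglyceride synthesis. With median-ratio scaling these medians were 0.35, 0.56 and 0.36. Without scaling, fed replicate 2 was the highest for 14 of the 17 fatty acid genes and 3 of the 6 triglyceride genes. With scaling it was the highest for 12 of the 17 and 3 of the 6. Fasn, fatty acid synthase, was 156, 811 and 343 FPKM and Acly, ATP citrate lyase, was 48.7, 242 and 87.7 FPKM in the fed libraries, a wider spread than that of any of the 4 enzymes. The difference in spread between lists was not tested. What set fed replicate 2 apart was not tested.

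**Figure D4:**
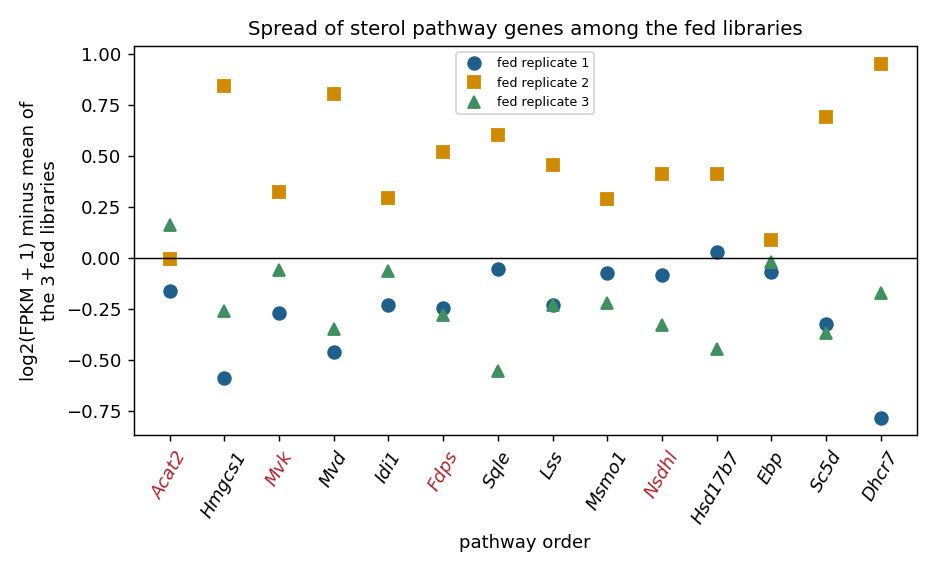
Deviation of each fed library from the mean of the 3 fed libraries (log2(FPKM + 1)) for the 14 pathway genes described, with the names of the 4 enzymes in red. The squares of fed replicate 2 are highest for 13 genes (12 after median-ratio scaling, which is not plotted), up to 0.95 above the mean for Dhcr7, and lie at the mean for Acat2.

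Mmab, the cobalamin adenosyltransferase that shares its start region with Mvk, was 14.2, 21.5 and 16.7 FPKM in fed and 11.4, 10.7 and 12.4 FPKM in fasted libraries. All its fasted values were below all its fed values, as for 52.6% of all genes tested. Its fed libraries had the same order as those of Mvk, an order also seen for Hmgcs1, Mvd, Idi1, Lss, Ebp and Dhcr7. The fall of Mmab was smaller than that of Mvk, -0.55 ± 0.17 against -1.46 ± 0.19. Its limma call (adjusted p = 0.0166) was lost in 4 of 15 alternatives (0.0122 to 0.308), among them median-ratio scaling and the fit without fasted replicate 2. The difference between the 2 falls was not tested.

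The regulators and the uptake genes of sterol metabolism went both ways. Of 18 listed genes 10 were held, and 5 were lower, 3 higher and 2 did not pass, where 49.4% of genes tested were lower and 41.1% higher. Srebf1, encoding SREBP1, went from 107, 114 and 96.8 FPKM to 38.3, 26.0 and 45.2 FPKM (-1.54 ± 0.20). Srebf2, encoding SREBP2, was 12.9, 13.2 and 10.2 FPKM in fed and 9.25, 9.51 and 8.24 FPKM in fasted libraries (-0.39 ± 0.14, limma adjusted p = 0.0331), and its call was lost in 8 of 15 alternatives (0.0256 to 0.611), among them without any single library except fed replicate 3. Fed replicate 2 was 1.12 times the mean of the other fed libraries for Srebf1 and 1.14 times for Srebf2, less than for Fdps, Nsdhl or Mvk.

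Insig1, the sterol-responsive anchor of the SREBP complex, was 51.8, 126.5 and 42.6 FPKM against 34.9, 45.8 and 38.2 FPKM. Its groups overlapped and it did not pass (-0.72 ± 0.37, limma adjusted p = 0.0891), with fed replicate 2 at 2.68 times the other fed libraries. Without fed replicate 3 it passed (-1.02, adjusted p = 0.0371), and without fed replicate 2 it was -0.25. Rnf145, a ubiquitin ligase of the endoplasmic reticulum, did not pass (-0.32 ± 0.15) except without fed replicate 3 (-0.46, limma adjusted p = 0.0316). Erlin2 (-0.62 ± 0.15), an endoplasmic reticulum protein of protein degradation, Npc2 (-0.70 ± 0.22), the lysosomal sterol carrier, and Scarb1 (-0.65 ± 0.20), the HDL receptor, were called lower. The call of Erlin2 was lost with both wider adjustments (limma adjusted p of 0.0619 and 0.156). The calls of Npc2 and Scarb1 were lost in 8 and 6 of 15 alternatives, among them the fits without fed replicate 3 and without fasted replicate 2 for both, and for Npc2 also those leaving out fed replicate 2 or fasted replicate 1.

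Npc1, which moves cholesterol out of lysosomes, rose from 11.6, 8.32 and 10.4 FPKM to 36.2, 42.9 and 34.0 FPKM (1.80 ± 0.16). This was opposite to its partner Npc2. Mylip (0.73 ± 0.17), a ubiquitin ligase, and Lipa (0.56 ± 0.13), lysosomal acid lipase, rose as well, calls lost with both wider adjustments (limma adjusted p of 0.0510 and 0.129 for Mylip, 0.0524 and 0.132 for Lipa). Of 11 listed genes of efflux and esterification 2 were held, and both were higher, where 41.1% of all genes tested were. Abcg1, a sterol exporter, went from 5.60, 8.01 and 10.7 FPKM to 27.8, 38.7 and 29.8 FPKM (1.89 ± 0.23), and Apoe, an apolipoprotein that accepts exported sterol, differed by 0.90 ± 0.22, a call lost with quantile scaling (limma adjusted p = 0.0691) and with both wider adjustments (0.062 and 0.157; 0.00576 to 0.157 over all alternatives). Abcg1 and Mylip, which were higher, and Srebf1, which was lower, are known targets of the sterol-sensing receptor LXR. Its targets were not examined as a set, so these genes do not give their general direction. A part of LXR in these changes was not tested.

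Farnesyl diphosphate, the product of Fdps, has users outside the sterol route. Of 15 listed genes of that branch 5 were held, of which 1 was lower, 1 higher and 3 did not pass, where 49.4% of all genes tested were lower and 41.1% higher, with a median of -0.21 against -1.85 for Fdps itself. Dolk, dolichol kinase, was lower (-0.60 ± 0.14) and Rabggtb, a subunit of the enzyme that prenylates Rab proteins, was higher (0.70 ± 0.18). Both calls were lost with the wider adjustments (limma adjusted p of 0.0587 and 0.148 for Dolk, 0.0766 and 0.194 for Rabggtb). The prenyltransferase subunit genes Fnta (-0.20 ± 0.12) and Fntb (-0.32 ± 0.14) and the protease gene Zmpste24 (-0.21 ± 0.11) did not pass. With median-ratio scaling Fnta was at 0.000599.

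In whole tissue, fewer cells of a type and less RNA per cell cannot be told apart. Markers of several cell types also differed between the groups, some lower like the 4 enzymes and others higher. Of 14 adipocyte markers 6 were held (Lep, Retn, Plin1, Aoc3, Mrap and Tshr), and all 6 were lower, where 49.4% of all genes tested were lower and 41.1% higher, with their summed level at 5977 to 7155 FPKM in fed and 3297 to 3875 FPKM in fasted libraries. The 3 endothelial markers held of 9 were all higher (123 to 140 against 199 to 261 FPKM summed). Of the 3 fibroblast and progenitor markers held of 8, Dcn and Ly6a were higher and Dpt lower (684 to 948 against 1160 to 1800 FPKM summed). Of the 2 macrophage markers held of 12, Mpeg1 was higher and Itgam lower (13.6 to 17.6 against 16.5 to 23.4 FPKM summed). The 1 lymphocyte marker held of 9, Cd3e, was 0.15 to 0.23 FPKM in fed and 0.89 to 0.98 FPKM in fasted libraries and was below the level for testing. None of the held markers was at 0 in any library, and no marker of mesothelium (0 of 6) or of the epididymis and testis (0 of 9) was held. The part of cell makeup in the falls of the 4 enzymes was not tested.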

How the data were processed

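Bulk RNA sequencing of epididymal white adipose tissue (70 mg per sample, Trizol extraction, per the labels' protocols) gave 6 libraries, 3 fed and 3 fasted, grouped by the treatment label. Replicate numbers follow accession order and pair no mice. Per the file headers, the authors' deposited values are FPKM; they carry up to 2 decimals. The submitters' processing notes name RSEM and the builds mm10 and GRCm38.p6. The RSEM version and the aligner: not given in the sources used here. Values of single reads could not be recovered, so the depth of each library is unknown and counting error cannot be given. Strand cannot be told from these values.

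Of 3162 gene identifiers 3158 matched GENCODE M21 (GRCm38). The 2999 genes whose mean reached 1 FPKM entered a limma 3.58.1 fit (R 4.3.3; lmFit, eBayes with trend) on log2(FPKM + 1), two-sided, with Benjamini-Hochberg adjustment over all of them and a threshold of 0.05. A wider adjustment counted each annotated gene not tested as having the largest p, over 21951 protein-coding or all 55450 genes. The fit was tested on simulated data in which most genes did not differ, unlike the genes held here. That run therefore does not vouch for the p-values given. The 4 enzymes and all lists were chosen with earlier results of these data known. Some listed genes are not reported here, and counts leave them out. The genes named are the 4 enzymes, the held genes of the sterol lists, genes overlapping them or starting within 2000 bases, and the 5 genes of most similar profile, with Fasn and Acly as examples chosen after their values were seen. Alternatives were pseudocounts of 0.1 and 5, no filter, median-ratio and quantile scaling, eBayes without trend or robust, the wider adjustments, and leaving out each library.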

Additional observations from a re-analysis of the deposited data

How the results depend on the processing

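Fdps, Nsdhl, Mvk and Acat2 stayed lower and past the threshold in all 15 alternatives, with log2 differences of -1.99 to -1.48 (Fdps), -1.62 to -1.17 (Nsdhl), -1.59 to -1.13 (Mvk) and -1.29 to -1.01 (Acat2), and limma adjusted p of at most 0.0471. Leaving out each library gave -1.99 to -1.59, -1.62 to -1.25, -1.59 to -1.30 and -1.29 to -1.12, and 11 to 13 lower genes on the sterol pathway list. That list had 8 lower genes when adjusted over protein-coding genes (16.5% of all genes tested were) and 4 over all annotated genes. Of all genes tested, 495 were lower and 557 higher over protein-coding genes, and 192 and 172 over all annotated genes. With median-ratio scaling 787 of all genes tested were lower, and lower genes were 38.9% of calls against 54.6% without it and 49.2% with quantile scaling; the median of all genes tested moved to -0.15. Fnta alone changed sign (0.000599 with median-ratio scaling). Fed spreads were 0.37, 0.30, 0.23 and 0.18 with median-ratio scaling. Calls of Idi1, Msmo1, Sc5d and Sqle were lost over all annotated genes alone; other lost calls stand beside their genes. No paired analysis was possible because the labels give no replicate numbers that fed and fasted mice share. Depth is unknown, and the genes held were selected on these libraries, which limits every count and p.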

Other observations

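The genes whose profile over the 6 libraries was most like the mean profile of the 4 enzymes were no sterol genes. Likeness was the root mean square difference of log2(FPKM + 1) after each gene's own mean was removed, over 2999 genes, given as a description. The closest were Jpt2 (0.087), Col5a1 (0.108), a fibrillar collagen gene, Adamtsl4 (0.115), Cyb5b (0.125), which encodes the outer mitochondrial membrane form of cytochrome b5, and Thyn1 (0.126). Jpt2 was 13.2, 22.1 and 14.7 FPKM in fed and 5.54, 5.25 and 5.46 FPKM in fasted libraries. The 4 enzymes themselves were further from their own mean, at 0.172 (Mvk, rank 21), 0.173 (Nsdhl, rank 22), 0.240 (Fdps, rank 69) and 0.256 (Acat2, rank 79), although each has a share in that mean. The nearest other pathway genes were Sc5d (0.225, rank 55) and Sqle (0.243, rank 73), and the farthest was Ebp (0.587, rank 1357). Without fed replicate 2 the closest genes were Ankrd29, Gypc, Slc2a13, Col3a1 and Jpt2, so that 1 of the 5 names was shared.

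Among 12 held pathway genes with a RefSeq promoter window, 11 had CCAAT in at least 1 window, Acat2 being the exception, and 12 had GGGCGG. Counted by window, 11 of their 14 windows held CCAAT and 13 held GGGCGG, where 37.4% and 35.7% of all windows did. Hmgcs1 had up to 4 matches to CCAAT, as did Nsdhl, and Mvk had 5. The letters TCACNCCAC occurred for 1 gene, Hmgcs1, as TCACCCCAC at chr13:119690214-119690222 on the gene's own strand (RefSeq, GRCm38.p6).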
